A study of Mus musculus with 2 samples.

Results

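The genes of voltage-gated sodium and calcium channels, HCN pacemaker channels, TRP cation channels and the sodium leak channel NALCN were followed in sorted AgRP neurons of FoxO1 KO and FoxO1 heterozygous KO mice. Members were the genes whose probe sets carried a single gene symbol naming a sodium channel alpha or beta subunit (Scn), a calcium channel subunit (Cacna1, Cacna2d, Cacnb, Cacng), an HCN channel, a TRPC, TRPM or TRPV channel, Trpa1 or Nalcn. This gave 62 of 22296 gene symbols and 2058 of 318760 such probe sets. Values came from 2 exon-level arrays of mouse hypothalamic neurons expressing agouti-related peptide, collected by FACS. One array held FoxO1 KO cells and the other FoxO1 heterozygous KO cells, the control, which also lacks FoxO1 on 1 allele by its label. Both came from a mixed background, with littermates matched for age and sex. The labels state neither the age, nor how many mice each array pools, nor which promoter drove the knockout.

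These channels set how a neuron fires. Sodium channel alpha subunits carry the upstroke of the action potential, and calcium channels turn spikes into calcium entry and transmitter release, while T-type, HCN and leak channels act near the resting potential. TRP channels are cation channels opened by receptor signalling, temperature, calcium or chemicals, and TRPC channels in particular couple hormone and transmitter receptors to depolarisation in hypothalamic neurons. AgRP neurons promote feeding when they fire.

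Values are log2 intensities. Dim probe sets were set aside: the average of both arrays had to reach 5.86, the median such average on the whole array and here called the floor. A gene with at least 3 such probe sets was evaluated, and its difference was the median over them of KO minus heterozygous KO. Levels are medians on each array, taken separately, and 2 such levels can be further apart or closer than the median difference. They can also differ in the opposite direction. A call, 2-fold or more in either direction, needed a difference of 1 or more in size with 75% or more of the gene's probe sets agreeing in sign. There was 1 array per genotype, so no test is possible. The SD given is over probe sets of a gene, not over mice, and having so few arrays limits precision throughout.

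The sorted cells carried the transcripts that define them. Levels of Agrp were 12.44 in KO cells and 11.97 in heterozygous KO cells, and those of Npy were 12.19 in KO cells and 12.31 in heterozygous KO cells. The differences were 0.27 for Agrp (6 of 7 probe sets higher) and 0.14 for Npy (4 of 6 higher). Foxo1 was at 7.46 in KO cells and 7.98 in heterozygous KO cells, with 8 of 8 probe sets lower and a difference of -0.48. Its paralogs, which were not targeted, were also below 0, at -0.68 for Foxo3 (10 of 12 probe sets lower), -0.58 for Foxo4 (6 of 9) and -0.39 for Foxo6 (9 of 10). The sources used here do not place its probe sets relative to the deletion. Markers of other cells differed between the arrays: all 12 oligodendrocyte precursor markers (10 after centring on the median of all genes) and all 11 evaluated mature oligodendrocyte markers were below 0, with medians of -0.57 and -1.02. The 11 evaluated pan-neuronal markers had a median of -0.16 and ran from -0.97 to 0.13. Of these, 1 was above 0 and 10 below (2 and 9 after that centring). The 12 markers of AgRP neurons had a median of 0.10 and ran from -0.70 to 0.52. Here 7 were above 0 and 5 below (8 and 4 after that centring). Median differences were -0.20 for 10 astrocyte markers, -0.12 for 9 tanycyte and ependymal, -0.25 for 8 endothelial and pericyte, 0.69 for 2 erythroid and -0.18 for 11 immediate early genes. Of these Hbb-b1 was called higher at 1.05 (1 of 2 erythroid markers) and Egr3 lower at -1.13 (1 of 11 immediate early genes). Among all evaluated genes 1.13% were called higher and 1.12% lower. Without the floor Hbb-b1 stood at 0.87 and was not called. In such bulk samples fewer cells of a type and less RNA per cell cannot be told apart.

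Of the 62 channel genes 61 were evaluated, and 2 of them were at least 2-fold lower on the KO array, Cacng3 and Trpc5. That is 3.28%, against 1.12% of all 16639 evaluated genes. No channel gene was at least 2-fold higher, against 1.13% of all evaluated genes. Most channel genes differed little: 57 of 61 lay within 0.5 of 0 on the log2 scale, or 93.4%, against 84.7% of all evaluated genes. Channel genes had a median of 22 probe sets at the floor, against 10 for all evaluated genes. Among the 2928 evaluated genes with at least 20 probe sets, 88.5% lay within 0.5 of 0. The median difference of the channel genes was -0.15 (quartiles -0.26 and -0.03), with 13 above 0 and 48 below (78.7%). All evaluated genes had a median of -0.11, and 65.2% of them were below 0. For those with at least 20 probe sets the share below 0 was 71.2%. With differences centred on that median of -0.11 (hereafter centring), the channel genes stood at -0.04, with 23 above 0 and 38 below. At a looser 1.5-fold rule 3 of 61 were lower (Cacna2d2 was added), against 4.9% of all evaluated genes, and 0 were higher, against 3.28%. The floor can be passed through 1 bright array, so values over all probe sets are given too: there the 62 genes had a median of -0.11, with 18 above 0 and 44 below. Cacng3, for which the same 4 probe sets count either way, was then the 1 member of 61 called lower, against 0.624% of all genes, and 0 were called higher, against 0.763%. At 1.5-fold 2 of 61 were lower without a floor, against 3.11% of all genes, and 0 higher, against 2.48%.

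**Figure D1:**
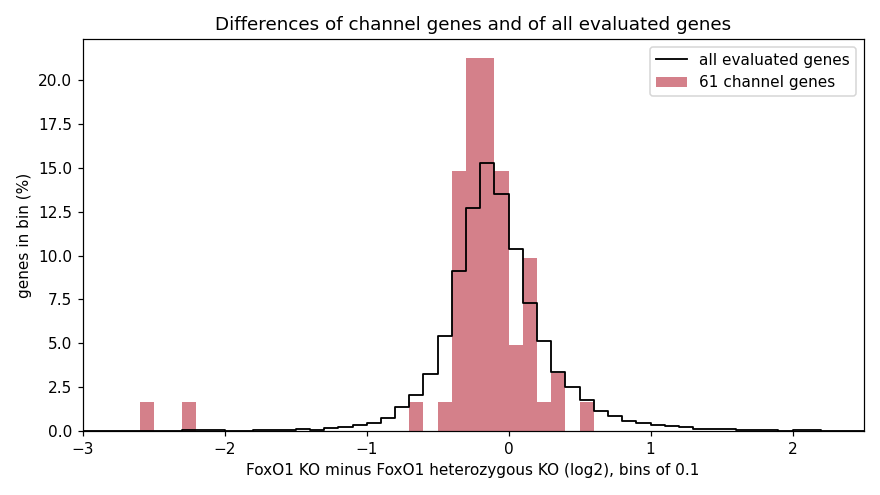
Share of genes (percent, vertical axis) by difference between FoxO1 KO and FoxO1 heterozygous KO (log2, horizontal axis, bins of 0.1) for the 61 evaluated channel genes (bars) and all 16639 evaluated genes (black line). Most bars lie within 0.5 of 0, as the line does, and 2 genes stand apart below -2.

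Calcium channel gamma subunits held the lowest member. Despite the family name, most of these proteins are auxiliary subunits of AMPA receptors (TARPs), which carry the receptor to the synapse and slow its closing, while Cacng1 belongs to the skeletal muscle calcium channel. Cacng3, the TARP gamma-3, had 4 probe sets. They stood at 4.10, 5.37, 4.98 and 5.69 on the KO array, against 8.05, 7.98, 7.51 and 6.07 on the heterozygous array, in the same order. All 4 were lower on the KO array, the values of the arrays did not overlap, and each KO value was under the floor while no heterozygous KO value was. The gene therefore passed the filter through the heterozygous array. The difference was -2.57 (SD 1.48), with levels of 5.18 (KO) and 7.74 (heterozygous KO), and its size rests on KO signals that are dim.

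Cacng7, a type II TARP, was too sparsely covered for evaluation. Its 2 probe sets stood at 8.55 and 8.27 in KO cells and at 10.45 and 9.41 in heterozygous KO cells. Both were lower, at -1.89 and -1.14. Cacng4, a TARP known from oligodendrocyte precursors as well as neurons, ranged between 7.08 and 8.66 in KO cells, with a median of 7.96, against 7.53 to 10.30 in heterozygous KO cells, with a median of 8.28 (7 probe sets). All 7 of its probe sets were lower, by 0.06 to 1.64, although the ranges overlapped, and the difference was -0.33 (SD 0.59). The founding TARP Cacng2, known as stargazin, differed by -0.26 (6 of 8 probe sets lower), Cacng5 by -0.25 (6 of 11), Cacng1 by -0.30 (6 of 8) and Cacng8 by -0.07 (2 of 3). All 6 evaluated members were thus below 0, with a median of -0.28, and 5 of 6 were after centring (Cacng8 was not). Over all probe sets Cacng8 stood at 0.30 with 2 of 4 higher. Beside this family, the summed level of the 12 oligodendrocyte precursor markers was 10.79 in KO cells and 11.83 in heterozygous KO cells (log2 of the sum). Of the 12, 5 were called lower (Pdgfra, Gpr17, Bcas1, Enpp6 and Lhfpl3, from -2.41 to -1.59), against 1.12% of all evaluated genes. The summed level of 11 evaluated mature oligodendrocyte markers was 10.93 in KO cells and 12.17 in heterozygous KO cells. Of the 11, 6 were called lower (Mag, Cnp, Trf, Mobp, Mbp and Mal, from -2.12 to -1.02), against the same 1.12%. Without the floor Mbp was not called. The summed level of 13 evaluated markers of other hypothalamic neurons was 11.89 in KO cells and 12.34 in heterozygous KO cells, with a median difference of -0.13. Of these 13, 3 were above 0 (Cartpt highest at 0.33) and 2 were called lower, again against 1.12%. The 2 were Oxt at -1.01 and Slc17a6, the glutamate transporter of excitatory neurons, at -4.29. Slc17a6 stood at 5.40 in KO cells and 9.11 in heterozygous KO cells, and its difference over all 20 probe sets was -1.15. Their part in the Cacng values was not tested.

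TRPC channels held the second gene called. Trpc5, a channel opened downstream of Gq-coupled receptors and, in POMC neurons of mice, of leptin signalling, had 4 of 13 probe sets at the floor. These were at 4.95, 5.49, 6.80 and 8.76 on the KO array, against 8.70, 9.04, 7.75 and 8.64 on the heterozygous array, in the same order. Of these, 2 were lower by 3.75 and 3.55, 1 was lower by 0.95 and 1 was at 0.12, so the arrays overlapped. The KO values of 4.95 and 5.49 were under the floor, while no heterozygous KO value was. Those 2 probe sets therefore passed the filter through the heterozygous array and rest on dim KO signals. The difference was -2.25 (SD 1.92). The other 9 probe sets averaged under the floor and lay between 3.67 and 6.05 in KO cells, against 3.28 to 6.07 in heterozygous KO cells. Over all 13 the difference was -0.34, with 9 lower and 4 higher, and Trpc5 was not called. Its closest relative Trpc4 was at 0.21 (10 of 19 probe sets higher), with levels of 8.28 in KO cells and 8.38 in heterozygous KO cells. Without its probe set of largest difference Trpc4 was at 0.005. Trpc1, which can join both in mixed channels, was at -0.15 (14 of 22 lower), with single probe sets from -4.28 to 3.20. Of the channels opened by diacylglycerol, Trpc6 was the highest of the family at 0.32 (14 of 20 probe sets higher, levels 8.18 KO and 7.54 heterozygous KO), and Trpc7 was at -0.09. Trpc2, the pheromone transduction channel of the mouse vomeronasal organ, was at -0.20 (35 of 60 lower). The median of the 6 was -0.12, and after centring -0.01.

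The promoter of Trpc5, a called gene, is shown because the comparison removes a transcription factor. It is a RefSeq window on GRCm38.p6 from 250 bases before to 50 bases after the gene's start, written 5′ to 3′ on the gene's strand. Capitals mark AAACA or its reverse complement TGTTT, the core shared by FoxO binding sites. The window lies on the minus strand at chrX:144688131-144688430.
Trpc5: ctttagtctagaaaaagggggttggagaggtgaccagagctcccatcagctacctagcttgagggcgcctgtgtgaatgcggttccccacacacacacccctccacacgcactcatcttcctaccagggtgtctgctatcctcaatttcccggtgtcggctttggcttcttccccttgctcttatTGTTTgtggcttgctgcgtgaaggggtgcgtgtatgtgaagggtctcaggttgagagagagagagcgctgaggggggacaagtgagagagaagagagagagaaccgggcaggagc
The core was present 1 time in the Trpc5 window, starting 65 bases before the start site. It is short, and 50.5% of all 32851 promoter windows and 43.9% of 66 windows of 51 channel genes held it on either strand. The longer FoxO motif GTAAACA (or TGTTTAC), which contains that core, was in 3.65% of all windows and in 0 of the 66. These are matches of letters only.

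**Figure D2:**
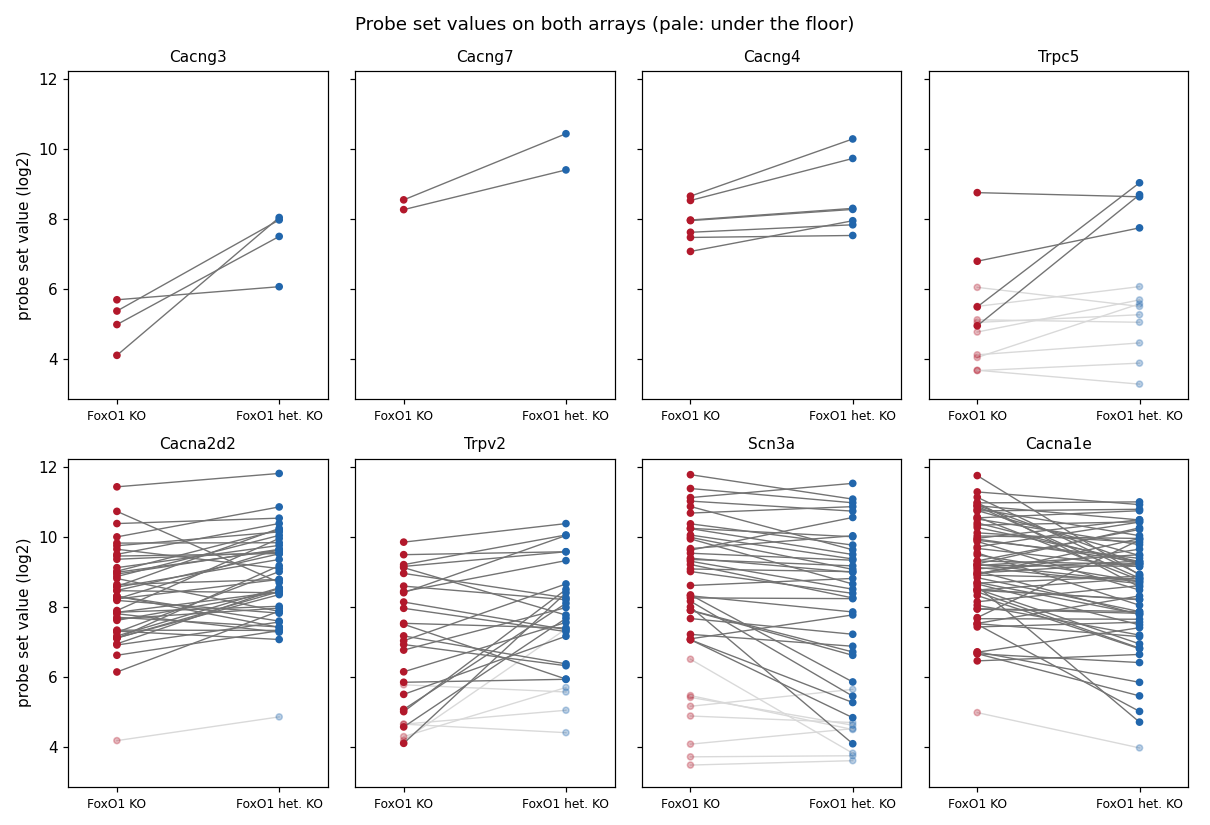
Probe set values (log2, vertical axis) of 8 channel genes on the FoxO1 KO array (red, left) and the FoxO1 heterozygous KO array (blue, right), with lines joining a probe set and pale points for probe sets whose mean is under the floor. Cacng3, Cacng7 and Cacng4 lie lower on the KO array in every probe set, Trpc5 in 2 probe sets by over 3, and Scn3a and Cacna1e lean higher on the KO array.

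Sodium channel alpha subunits held the highest member. Scn3a, which encodes Nav1.3, a channel best known from developing neurons, ranged between 7.06 and 11.79 in KO cells, with a median of 9.34, against 4.08 to 11.54 in heterozygous KO cells, with a median of 8.90 (34 probe sets). The ranges overlapped, and 28 of 34 probe sets were higher on the KO array. The difference was 0.54 (SD 1.00), or 1.45-fold. Of 2928 evaluated genes with at least 20 probe sets 2.39% were higher. The 4 probe sets of Scn3a that were over 4-fold higher stood at 7.06 to 8.34 in KO cells, against 4.08 to 5.85 in heterozygous KO cells. Over all 42 probe sets the difference was 0.46, with 32 higher.

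The other neuronal alpha subunits lay near 0. Scn2a1 (now Scn2a, Nav1.2) was at 0.13, with levels of 9.63 on both arrays and 20 of 35 probe sets higher. Scn9a (Nav1.7), known from sensory and hypothalamic neurons, was at 0.08 (19 of 33 higher). Scn8a (Nav1.6), the main channel of the axon initial segment, was at -0.09 (13 of 23 lower), and Scn1a (Nav1.1), known from inhibitory neurons, at -0.21 (15 of 23 lower, SD 1.26). Over all 40 of its probe sets Scn8a was at 0.03. Scn7a, which encodes a sodium sensor rather than a spike channel, was at -0.22 over 11 probe sets, 3 of which were over 4-fold higher on the KO array. The nociceptor channels Scn10a and Scn11a were at -0.23 and -0.11, and the skeletal muscle channel Scn4a at -0.18. Only 40% of Scn10a and 37.5% of Scn11a probe sets reached the floor, against 89.7% for Scn2a1. The 3 muscle channel genes Scn4a, Cacna1s and Cacng1 stood beside 10 muscle markers with a summed level of 10.54 on both arrays and a median difference of -0.13. The median of the 9 alpha subunits was -0.11 (3 above 0, and 5 after centring), with 103 of their 203 probe sets higher and 100 lower. Without the floor their median was 0.02, with 5 above 0 and 4 below.

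Sodium channel beta subunits, which tune gating and anchor the alpha subunits, differed by -0.38 for Scn2b (6 of 9 probe sets lower, levels 8.79 KO and 9.17 heterozygous KO), by -0.15 for Scn4b and by 0.12 for Scn3b (7 of 13 higher, levels 9.90 KO and 9.13 heterozygous KO). Scn4b rested on 3 of 8 probe sets.

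Pore-forming alpha1 subunits of the calcium channels of transmitter release divided in sign. Cacna1e, the R-type channel, ranged between 6.46 and 11.76 in KO cells, with a median of 9.16, against 4.70 to 11.01 in heterozygous KO cells, with a median of 8.82 (66 probe sets). The ranges overlapped, with 45 of 66 probe sets higher on the KO array. Its difference was 0.37 (SD 1.04), and 5.36% of evaluated genes with at least 20 probe sets were higher. Of its probe sets 6 were over 4-fold higher and 1 over 4-fold lower. Cacna1a, the P/Q-type channel, was at -0.22 (30 of 45 lower, levels 7.84 KO and 8.18 heterozygous KO), and Cacna1b, the N-type channel, at -0.13 (34 of 59 lower, levels 8.75 KO and 8.57 heterozygous KO). These 3 genes together had 85 probe sets higher and 85 lower.

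L-type subunits lay just below 0 in the nervous system forms. Cacna1c was at -0.21 (34 of 60 probe sets lower) and Cacna1d, which opens at more negative voltages, at -0.22 (36 of 59 lower). The retinal form Cacna1f was at -0.14 and the skeletal muscle form Cacna1s at 0.11, with 54.2% and 58% of their probe sets at the floor, against 87% for Cacna1c. T-type channels, which support burst firing from rest, were at 0.10 for Cacna1g (25 of 44 higher, levels 7.40 KO and 7.23 heterozygous KO), -0.14 for Cacna1h (24 of 43 lower) and -0.23 for Cacna1i (22 of 35 lower). None of the 10 alpha1 genes was called.

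Alpha2delta subunits, extracellular proteins that raise the number of calcium channels at the membrane, were all below 0, with a median of -0.30 over 4 genes, and 3 of 4 were after centring (Cacna2d4 was not). Cacna2d2 was the lowest of them and the third lowest channel gene evaluated. It ranged between 6.14 and 11.44 in KO cells, with a median of 8.31, against 7.07 to 11.82 in heterozygous KO cells, with a median of 8.79 (44 probe sets). The ranges overlapped almost fully, while 33 of 44 probe sets were lower on the KO array. Its difference was -0.61 (SD 0.87), or 1.53-fold, and 4.61% of genes with at least 20 probe sets were lower. Cacna2d1 was at -0.33 (28 of 42 lower), Cacna2d3 at -0.26 (22 of 34 lower) and Cacna2d4 at -0.01 (12 of 24 lower). Cacna2d3 held the widest single probe sets of all members: 1 stood at 9.72 in KO cells and 4.15 in heterozygous KO cells, and another at 4.43 in KO cells and 8.86 in heterozygous KO cells. Cytoplasmic beta subunits, which chaperone the alpha1 subunit, were at -0.25 for Cacnb1, -0.05 for Cacnb3, -0.03 for Cacnb2 and 0.13 for Cacnb4 (16 of 23 higher). Their median was -0.04, and 0.07 after centring, with 41 probe sets higher and 42 lower.

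HCN channels carry the inward current that hyperpolarisation opens. Hcn2, with values of 5.92 to 9.42 in KO cells and 5.35 to 9.83 in heterozygous KO cells, was lower in 9 of 11 probe sets, at -0.38 (SD 0.85). Hcn3 was lower in 12 of 15, at -0.35 (SD 0.91), with levels of 6.95 (KO) and 7.57 (heterozygous KO). Hcn4 was at 0.08 (6 of 10 higher, levels 7.72 KO and 7.24 heterozygous KO), and a stricter floor, at the 75th percentile, put it at -0.21. Nalcn, the sodium leak channel that holds neurons near threshold, was at -0.07 with 22 probe sets higher and 23 lower (SD 0.94, levels 8.29 KO and 8.56 heterozygous KO).

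TRPM channels had a median of -0.15 over 8 genes. Trpm4 and Trpm5, opened by internal calcium, were at -0.34 (17 of 27 probe sets lower) and -0.15 (15 of 24). Trpm2, opened by ADP-ribose and warmth and known as a hypothalamic temperature sensor in mice, was lower in 20 of 25 probe sets, at -0.27 (SD 0.57, levels 6.67 KO and 7.18 heterozygous KO). The channel kinases of magnesium uptake, Trpm6 and Trpm7, were at -0.14 and -0.17, with single probe sets of Trpm7 from -2.82 to 3.65. The cold receptor Trpm8 was at -0.03 and the retinal channel Trpm1 at 0.08. Trpm3, a heat and steroid receptor, was the highest at 0.16 (19 of 29 higher). Its 4 probe sets over 4-fold apart were all higher on the KO array.

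All 6 TRPV genes were below 0, with a median of -0.19, and 5 of 6 were after centring (Trpv1 was not). Trpv2, a heat- and stretch-sensitive channel also found in hypothalamic neurons and macrophages, was the lowest at -0.48 (15 of 24 probe sets lower, SD 1.58). Of its probe sets 4 stood at 4.10 to 5.07 on the KO array, against 7.67 to 8.50 on the heterozygous array, while the other 20 held 9 that were higher. The epithelial calcium channels Trpv5 and Trpv6 were at -0.36 and -0.18, the warmth receptor Trpv3 at -0.20, the osmotic sensor Trpv4 at -0.15 and the capsaicin receptor Trpv1 at -0.09 (9 of 14 lower). Trpv5 had 7 of 18 probe sets at the floor (4 lower, 3 higher) and was at -0.02 over all 18. Trpv6 ran from -0.21 to 0.20 under other settings. Trpa1, the irritant receptor of sensory neurons, reached the floor in 5 of 32 probe sets. It stood at -0.37 over those 5 and at -0.09 over all 32, so its value rests on few probe sets. Microglia and macrophage markers, given here because Trpv2 and Trpm2 are also known from those cells, had a summed level of 10.56 in KO cells and 10.72 in heterozygous KO cells. These 10 markers had a median difference of -0.10. Of them 8 were below 0 (4 after centring) and none was called, and their part in the TRP values was not tested.

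**Figure D3:**
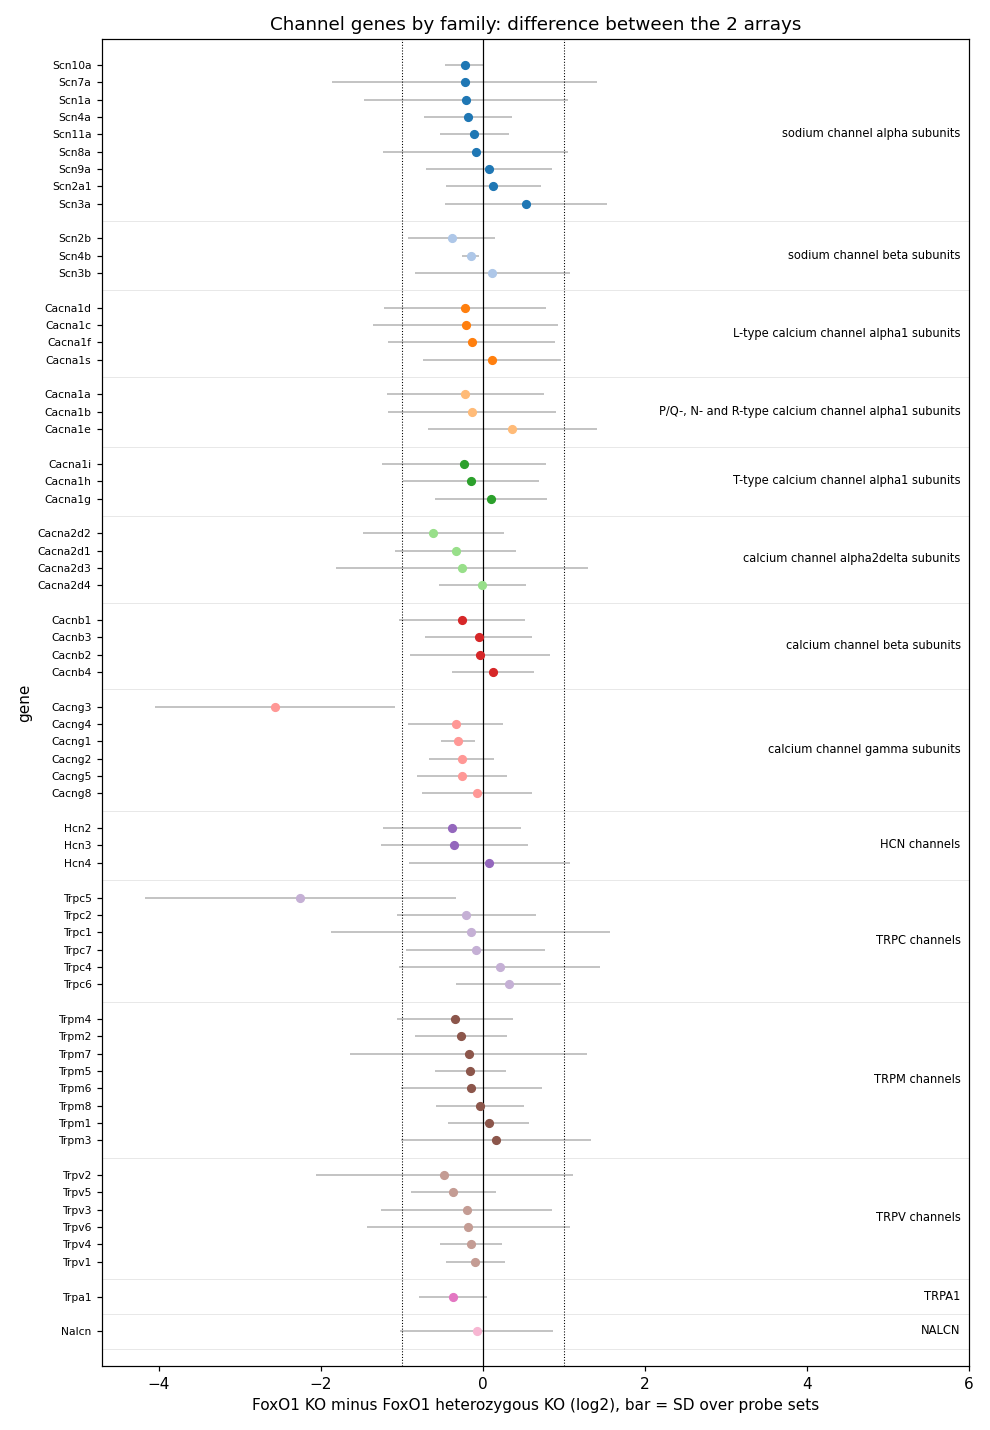
Difference between FoxO1 KO and FoxO1 heterozygous KO (log2, horizontal axis) of each of the 61 evaluated channel genes, ordered within families, with the SD over the gene's probe sets as bars and dotted lines at -1 and 1. Cacng3 and Trpc5 lie below -1, and the other 59 lie between -0.61 and 0.54.

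Single probe sets scattered more than the gene medians. Of 1458 channel probe sets at the floor, 51 in 26 genes were at least 4-fold lower on the KO array and 44 in 18 genes at least 4-fold higher. These are 3.5% and 3.02%, against 2.6% and 2.56% of all 215976 single-symbol probe sets at the floor. The arrays correlated at r = 0.757 over the channel probe sets and at r = 0.809 over all single-symbol probe sets at the floor. Probe sets share genes and arrays, so these are descriptions. The median SD within a channel gene was 0.85, above the size of all but 2 of the 61 differences.

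**Figure D4:**
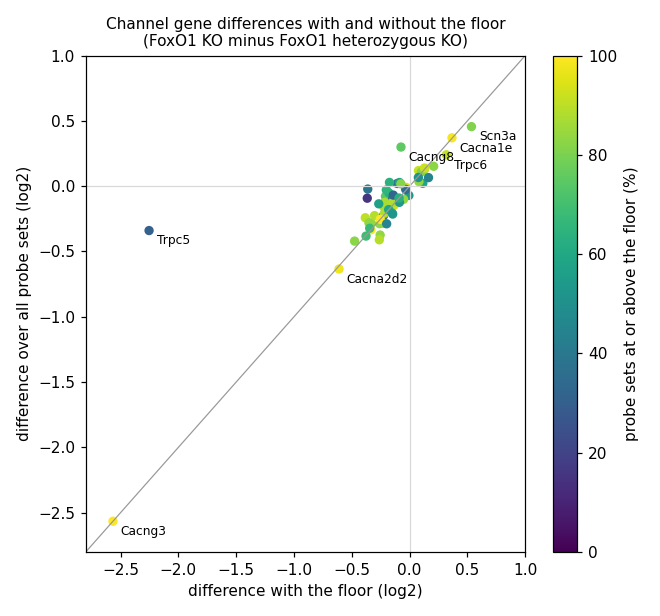
Difference (KO minus heterozygous KO, log2) over probe sets at the floor (horizontal axis) against the difference over all probe sets of the gene (vertical axis) for the 61 evaluated channel genes, coloured by the share of probe sets at the floor. Cacng3 lies on the diagonal at -2.57 because all its 4 probe sets reach the floor, while Trpc5 moves to -0.34 when its dim probe sets are included.

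Partner proteins of these channels were described from a separate list of 34 genes, of which 29 were evaluated. At 2-fold 0 of 29 were called higher and 0 lower, against 1.13% and 1.12% of all evaluated genes, so these counts are near the background. The median was -0.22, with 8 above 0 and 21 below, and after centring -0.11, with 11 above 0 and 18 below. Fgf14, an intracellular protein that binds sodium channels at the axon initial segment, was the highest at 0.93 (SD 0.58, 11 of 12 probe sets higher), with levels of 9.24 in KO cells and 8.83 in heterozygous KO cells. Its relatives Fgf11, Fgf12 and Fgf13 were at -0.24, 0.06 and -0.25. Nfasc, an adhesion molecule of the initial segment that oligodendrocytes also make in another form, was the lowest at -0.67 (31 of 39 lower), and the scaffold Ank3 was at -0.09 (37 of 68 lower). Unc79, a subunit of the NALCN complex, was at 0.14, and Pex5l, which regulates HCN channels, at 0.23 (13 of 21 higher). Rrad, a small GTPase that inhibits calcium channels, was lower in 8 of 8 probe sets, at -0.49 (SD 0.16).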

How the data were processed

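The deposited table holds 1 log2 value per probe set and array for 1235936 probe sets, with a log2 scale taken from the values. Per the submitters' processing notes, the authors used RMA (background correction, normalization and summary of probes) and Partek, with no versions given, and per the labels' protocols RNA was extracted with Trizol and labelled with biotin by a Nugen protocol. RMA usually brings arrays to a shared distribution, which would hide an overall shift in RNA. The KO array spans 2.55 to 14.11 and the heterozygous array 2.53 to 14.13.

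Genes were named from the platform annotation through probe sets with 1 symbol. No probe set with several symbols named a channel gene. Of 62 channel symbols 61 are current in RefSeq (GRCm38.p6) and 1 is an older symbol. A genome build or exon for the probe sets was not given in these sources, so no probe set has coordinates here. The promoter of Cacng3 is not reported here. The gene summary is described with the results and was tested on simulated data.

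The members, gene lists and marker lists were chosen with earlier results of these data known, so no list is independent support. Every channel gene may be named. Probe set values are given for called genes and for others chosen after their values were seen (Cacng7, Cacng4, Cacna2d2, Cacna2d3, Scn3a, Cacna1e, Trpv2, Hcn2, Trpc1, Trpm7). Of other lists the called genes are named. Where a list held none, the highest and lowest are named for the channel partners. Marker lists with no call are given by their medians, some with ranges or counts by sign. Further genes there were chosen after their values were seen. Alternatives changed the floor, the summary, the number of probe sets, the normalization and the call. The software was Python 3.11.15 with numpy 2.4.6, pandas 2.3.3 and matplotlib 3.10.9.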

Additional observations from a re-analysis of the deposited data

How the results depend on the processing

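No channel gene was called higher under any of 13 other settings or under centring of the differences, which was chosen after seeing the data. Of all genes, 0.108% to 3.28% were called higher in these settings. The count called lower was 2 of 61, against 1.12% of all genes. With no floor it was 1 of 61 (Cacng3 alone, its 4 probe sets unchanged), against 0.624%. With the floor at the 75th percentile it was 0 of 51, against 1.57%. With at least 5 probe sets per gene it was 0 of 57, against 0.966%. Without the probe set of largest difference in each gene it was 1 of 59 (Cacng3 alone), against 0.692%. Cacng3 and Trpc5 each had 4 probe sets at the floor, and neither was evaluated under the stricter floor or the higher minimum. Some settings could not move a value: changing the minimum of probe sets, or adding those with several symbols, left every member already evaluated as it was. They are among the settings counted below. Cacng3 was called in all 9 settings that evaluated it, between -2.57 and -2.36. The settings that changed the normalization, and centring, put it between -2.56 and -2.46, shifts too small to undo its call. For Cacng3 the setting with no floor could not change the value either, since its 4 probe sets stayed the same. Trpc5 was called in 7 of 9, and ran from -2.25 to -0.34. With at least 1 probe set per gene 3 of 62 were called lower, against 1.6% of all genes, Cacng7 being added. The median of the channel genes stayed below 0, from -0.16 with at least 1 probe set per gene to -0.04 by centring. The median of all genes was -0.11 and 0 in the same settings. By the mean in place of the median, the channel genes stood at -0.20 and all genes at -0.08. Of 61 members 44 kept their sign in every setting that evaluated them, 10 above 0 (Scn3a from 0.41 to 0.72, Cacna1e from 0.33 to 0.52) and 34 below (Cacna2d2 from -0.63 to -0.50), while 17 did not. Scn7a ran from -0.26 to 0.54. No paired analysis was possible because each genotype has 1 array. Probe sets near the floor limit what dim genes such as Trpa1 and Scn10a can show.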

Other observations

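Related cation channels outside the families above were summarised the same way, from a list of 31 genes, of which 28 were evaluated. Their median difference was -0.10, with 8 above 0 and 20 below, and 14 each way after the differences were centred on the median of all genes. Catsper3, a subunit of the sperm calcium channel, was the 1 gene of 28 called higher, against 1.13% of all evaluated genes. None was called lower, against 1.12%. Catsper3 was at 1.02 (SD 1.48, 4 of 4 probe sets higher), with levels of 7.29 in KO cells and 6.21 in heterozygous KO cells. Over all 12 of its probe sets it stood at 0.17 and was not called. The lowest was Asic2, an acid-sensing sodium channel of neurons, at -0.77 (SD 0.57, 13 of 15 probe sets lower), with levels of 8.67 (KO) and 8.72 (heterozygous KO). Tmem63b, a mechanically gated cation channel, was lower in 24 of 26 probe sets, at -0.69 (SD 0.50, levels 8.38 in KO cells and 8.89 in heterozygous KO cells). Its value was known when it was picked for mention. The mechanosensitive channel Piezo1 was at -0.01 over 30 probe sets.

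Scn1a, Scn2a1, Scn3a, Scn7a and Scn9a all lie on mouse chromosome 2 in RefSeq. Scn3a was at 0.54 (SD 1.00), Scn2a1 at 0.13 (SD 0.59) and Scn9a at 0.08 (SD 0.78). Scn1a was at -0.21 (SD 1.26) and Scn7a at -0.22 (SD 1.64). By the mean over probe sets Scn7a stood at 0.54. Each difference is smaller than its SD over probe sets, so whether these genes run together cannot be told and was not tested.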
